A study of Mus musculus with 7 samples.

Results

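The rows for Foxp3, Csf1r and Tnfrsf18, 3 of the 48440 genes in a count table of mouse pancreatic islet RNA, were examined because each carried counts while other genes of the same immune lineages were sparse. They were chosen by gene identity, after their counts and fold changes in these libraries were known, so their levels are given as a description. The islets came from female prediabetic nonobese diabetic (NOD) mice, a strain in which immune cells infiltrate the islets, and all mice carried NOD.hALOX12, in which human ALOX12 replaces mouse Alox15 in every tissue. Mice received vehicle (4 libraries) or 30 mg/kg per day of VLX-1005 (3 libraries), an inhibitor of the human 12-lipoxygenase, by mouth for 4 weeks from 6 to 10 weeks of age. Whether 1 animal or several stood behind each library is not in the labels, so p-values measure the spread between libraries, which may be partly technical.

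Foxp3 encodes the transcription factor that defines regulatory T cells, which restrain other T cells and whose loss leads to autoimmunity. Csf1r encodes the receptor for CSF1 and IL-34 on macrophages and monocytes, which depend on it for survival. Tnfrsf18 encodes GITR, a tumor necrosis factor receptor family member that is abundant on regulatory T cells and rises on activated T cells. Cells that express Foxp3 ordinarily also carry the T cell receptor component CD3ε (Cd3e), the coreceptor CD4 (Cd4) and the interleukin-2 receptor α chain (Il2ra), and mature mouse macrophages carry F4/80 (Adgre1). RNA from the whole islet preparation was measured, so fewer cells of a type and less RNA per cell cannot be told apart. By the study's methods, islets were handpicked after a density gradient and left to recover overnight before RNA was taken. Any effect of these steps on the immune cells present was not tested.

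The libraries held 1024586 to 1430785 counts, and 9862 to 12310 genes had at least 1 count in a library. Replicates of a group differed by more than counting noise in every pair (chi-square divided by its degrees of freedom, 5.16 to 16.5). Insulin, the defining product of islet β cells, was present but low: Ins1 and Ins2 together took 0.0138% to 0.0279% of the counts. The islet label therefore rests on hormone genes that were detected in every library at a very small share. A count of 0 in a library allows up to 3 counts there, or 2.10 to 2.93 CPM (counts scaled to the library total), and this limit covers counting error only.

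Each of the 3 genes shares exonic bases with a gene read in the other direction (mm10, gene models of GENCODE M21), and the strand setting of the counting is not given in the sources used. Reads from these shared bases therefore cannot be assigned to one of the genes with certainty. Foxp3 (ENSMUSG00000039521.12, chrX:7573644-7595245, plus strand) shares 590 of its 4577 exonic bases with Ccdc22 on the minus strand, which encodes a subunit of the Commander complex that recycles receptors from endosomes. All 590 bases lie in untranslated parts of Foxp3, in 4 blocks near its 3′ end, and 345 of them are coding in Ccdc22. Of 10 annotated Foxp3 transcripts, 4 reach into these bases. Foxp3 also shares 266 bases at its other end with Ppp1r3f, and 853 bases with the noncoding Flicr, which runs on the same strand.

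Csf1r (ENSMUSG00000024621.15, chr18:61100598-61132149, plus strand) shares 873 of its 5774 exonic bases with Hmgxb3, a gene for an HMG-box protein on the minus strand. These bases form 1 block in the untranslated end of Csf1r, and only 1 of 6 annotated Csf1r transcripts includes any of them.

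Tnfrsf18 (ENSMUSG00000041954.18, chr4:156026164-156028895, plus strand) shares 414 of its 1524 exonic bases with Gm16008, an antisense noncoding gene, in blocks of 334 and 80 bases. Of the 414 bases, 231 are coding in Tnfrsf18, and all 6 of its transcripts reach into them.

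The shared coding bases in the first exon of Tnfrsf18, at chr4:156026387-156026537 on the plus strand (mm10), are shown because a fragment from either gene would carry them, differing only in strand. The 151 bases were read from the GENCODE M21 transcript, with the start codon in capitals.
Tnfrsf18: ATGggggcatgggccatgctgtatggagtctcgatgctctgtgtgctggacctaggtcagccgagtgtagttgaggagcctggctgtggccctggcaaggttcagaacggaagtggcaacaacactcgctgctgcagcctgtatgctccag

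**Figure D1:**
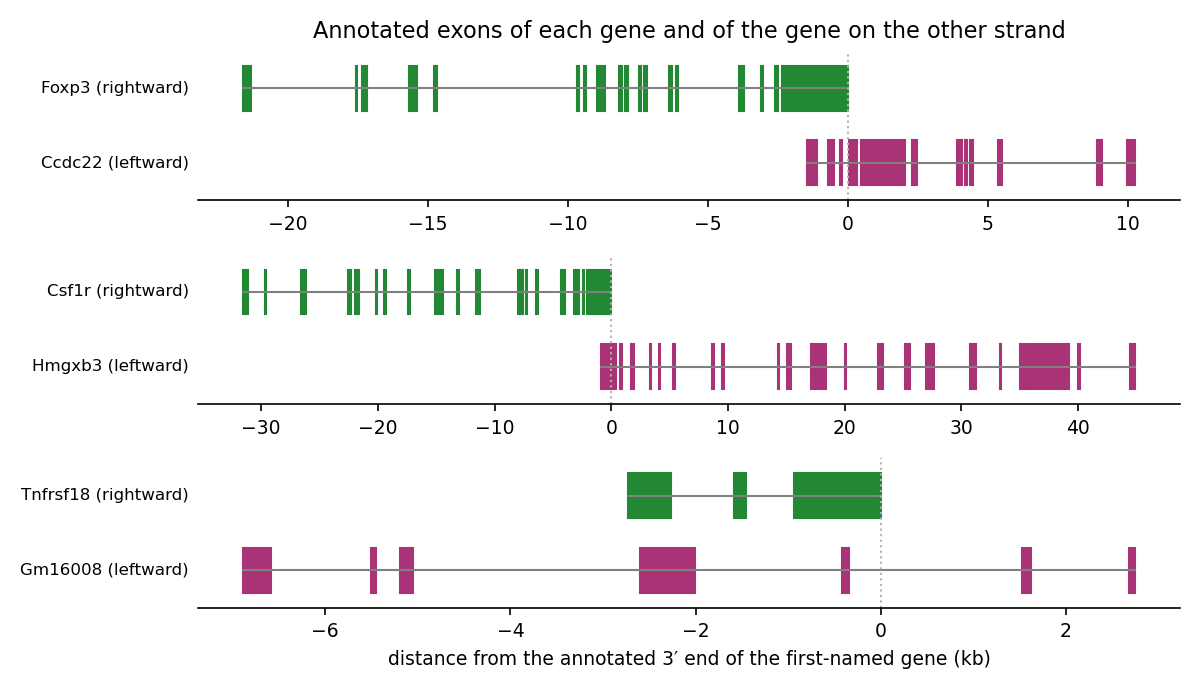
Exons of each gene (green) and of the gene on the other strand (purple), with the horizontal axis in kb from the annotated 3′ end of the first-named gene. Foxp3 and Csf1r meet Ccdc22 and Hmgxb3 tail to tail, whereas Gm16008 spans the whole of Tnfrsf18.

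The Foxp3 row was high in every library. It held 332, 365, 376 and 346 counts in vehicle replicates 1 to 4 and 343, 204 and 327 in VLX-1005 replicates 1 to 3. Its total of 2293 counts ranked 688th among the 48440 genes and exceeded that of 83.7% of the genes tested. Scaled to library size, the row stood at 282, 286, 349 and 276 CPM with vehicle and 238, 199 and 258 CPM with VLX-1005. The groups did not overlap, as for 8.16% of all genes tested in that direction. Vehicle replicate 3 was the highest library and VLX-1005 replicate 2 the lowest.

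The Csf1r row held about as many counts and was steadier. It held 293, 352, 342 and 310 counts in vehicle libraries and 395, 318 and 360 in VLX-1005 libraries, 2370 altogether. In CPM the values were 249, 276, 318 and 247 with vehicle and 274, 310 and 285 with VLX-1005. The groups overlapped, and the highest library was only 1.29 times the lowest, against 1.76 times for Foxp3.

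The Tnfrsf18 row held far fewer counts, with 15, 12, 15 and 16 counts in vehicle libraries and 18, 8 and 22 in VLX-1005 libraries, 106 in all. It stood at 12.7, 9.40, 13.9 and 12.7 CPM with vehicle and 12.5, 7.79 and 17.4 CPM with VLX-1005. The VLX-1005 libraries held both the lowest and the highest value, and the vehicle libraries lay between them. The row exceeded 18.9% of the genes tested.

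**Figure D2:**
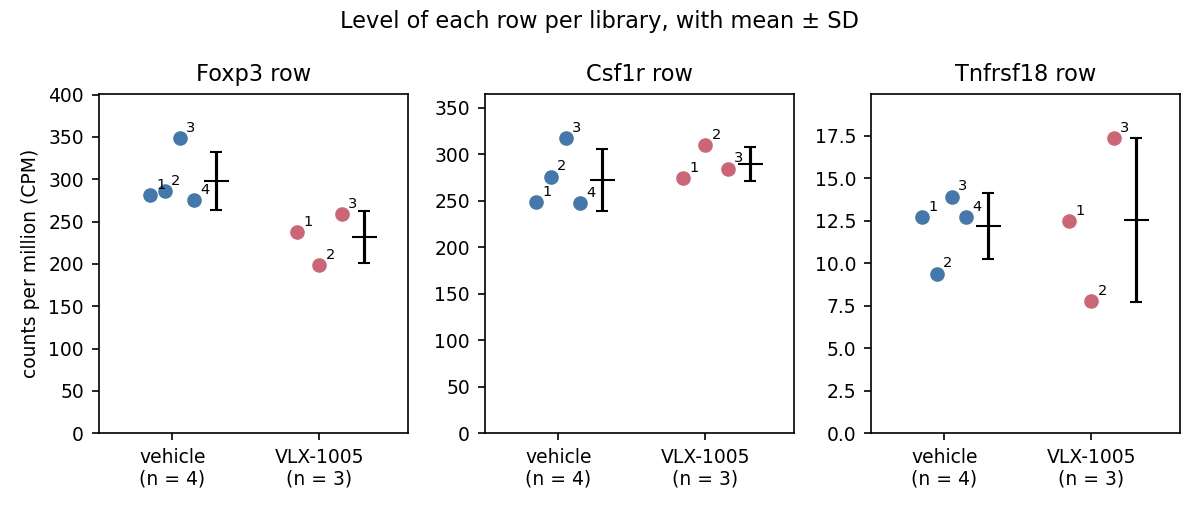
Level of each row in CPM (vertical axis, from 0) for each vehicle library (blue, n = 4) and VLX-1005 library (red, n = 3), numbered by replicate, with mean ± SD in black. The groups are apart for Foxp3, at 276 to 349 against 199 to 258 CPM, and overlap for Csf1r and Tnfrsf18. Of all genes tested, 8.16% were apart in the direction of Foxp3.

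Per kb of annotated exon, the level with vehicle was 65.1 ± 7.48 CPM for Foxp3, 47.1 ± 5.71 for Csf1r and 8.0 ± 1.28 for Tnfrsf18 (SD, n = 4). With VLX-1005 it was 50.6 ± 6.65, 50.1 ± 3.17 and 8.24 ± 3.15 CPM per kb (SD, n = 3). Foxp3 was above Csf1r in the vehicle libraries without overlap (60.2 to 76.3 against 42.8 to 55.0), and the ranges of the 2 rows overlapped with VLX-1005 (43.4 to 56.5 against 47.4 to 53.6). Tnfrsf18 was below both in every library. The exon lengths are unions over all annotated transcripts, and the transcripts in use were not measured. Where the reads fell along the exons is not in the counts, so the length they came from may be shorter.

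The question asked of the contrast was whether VLX-1005 changed these rows. None of the 3 passed the test of edgeR over all 4218 genes tested (Benjamini-Hochberg adjusted p below 0.05), where 100 genes, or 2.37%, did: 99 (2.35%) were higher with VLX-1005 and 1 (0.0237%) was lower. All 3 rows passed the filter on low counts. Foxp3 was 298 ± 34.3 CPM (SD, n = 4) with vehicle and 232 ± 30.4 CPM (SD, n = 3) with VLX-1005. Its log2 fold change in edgeR was -0.36 ± 0.14 (SE), with an unadjusted p of 0.0268 and an adjusted p of 0.206. The 95% interval of this single row ran from -0.67 to -0.05 and carries no correction for the number of genes. Rows entirely lower with VLX-1005, as Foxp3 was, made up 8.16% of those tested, and 9.48% were entirely higher. The study also named Foxp3 from this contrast in the same libraries, without a direction, so the row's direction is not independent evidence. The study listed genes by an unadjusted p-value and a fold-change cutoff, and the Foxp3 row did not reach that fold change here.

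Csf1r was 272 ± 33.0 CPM (SD, n = 4) with vehicle and 289 ± 18.3 CPM (SD, n = 3) with VLX-1005. Its log2 fold change was 0.09 ± 0.13 (SE, edgeR adjusted p = 0.776), with a 95% interval from -0.20 to 0.38. Tnfrsf18 was 12.2 ± 1.95 CPM (SD, n = 4) against 12.6 ± 4.80 CPM (SD, n = 3). Its log2 fold change was 0.06 ± 0.38 (SE, edgeR adjusted p = 0.955), with a 95% interval from -0.76 to 0.88, so the data leave both a lower and a higher level within that range possible. The median log2 fold change over all genes tested was -0.01.

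The share of ribosomal RNA in a library differed with treatment, at 1.69% to 2.11% with vehicle and 2.15% to 3.14% with VLX-1005, without overlap. VLX-1005 replicate 2, the library lowest for Foxp3, had the highest share. With this share as a covariate the Foxp3 log2 fold change was -0.21 ± 0.20 (SE, edgeR adjusted p = 0.921). The part of ribosomal RNA in the Foxp3 difference was not tested. The size of the Foxp3 difference was smaller without vehicle replicate 3, at -0.28, or without VLX-1005 replicate 2, at -0.26.

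**Figure D3:**
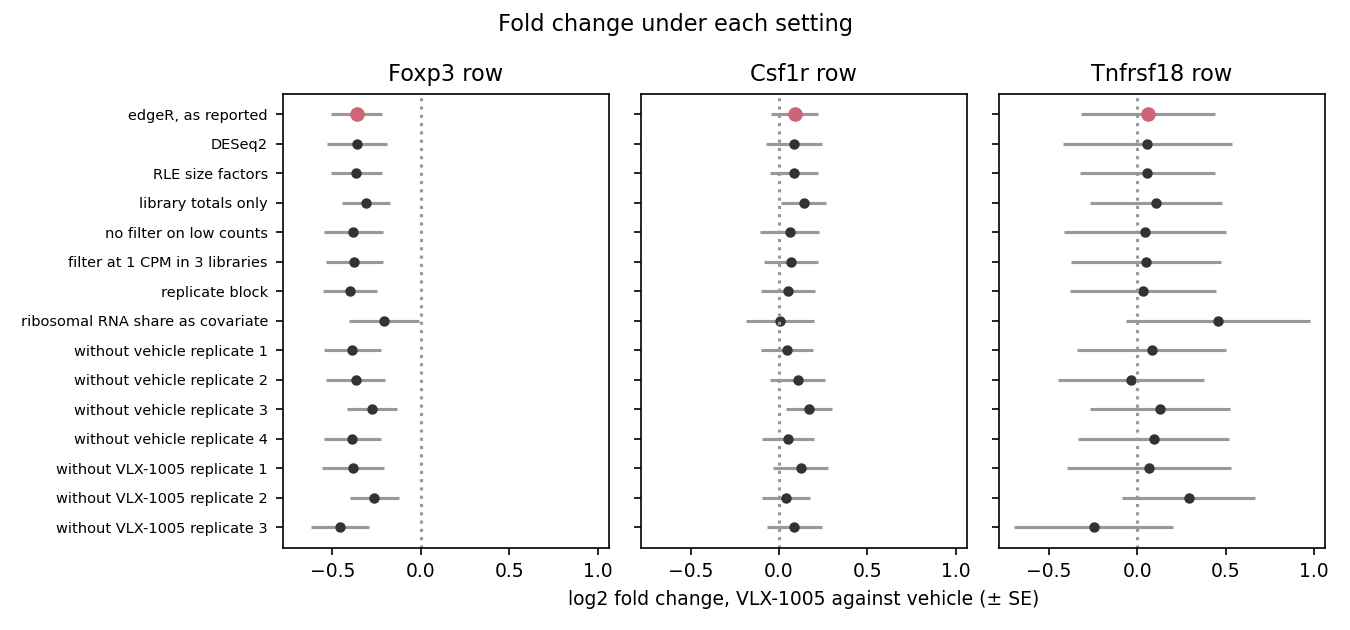
Log2 fold change of VLX-1005 against vehicle with its SE (horizontal axis) for each row under each setting (vertical axis), with the reported fit in red. Foxp3 stays below 0 in every setting, from -0.46 to -0.21, Csf1r stays between 0.01 and 0.17, and Tnfrsf18 crosses 0, from -0.25 to 0.46.

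Lineage genes that usually accompany such transcripts had few or no counts. In this table a low count does not show that a gene was not expressed, since Pdx1 and Slc2a2, which islet β cells express, had 16 and 6 counts over all libraries. Cd3e had 2 counts in vehicle replicate 1 and 0 in the other 6 libraries. Cd4 had 1 count in vehicle replicate 4 and 0 elsewhere. Il2ra and Adgre1 had 0 counts in all 7 libraries. The 4 genes together had 3 counts, against 2293 for the Foxp3 row and 2370 for the Csf1r row. Per kb of exon in the vehicle libraries, Foxp3 stood at 65.1 CPM and Cd3e at 0.104 CPM, with the same limit on exon length. Tnfrsf4, the gene next to Tnfrsf18 that encodes OX40, another receptor of regulatory T cells, had 0 counts in every library.

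**Figure D4:**
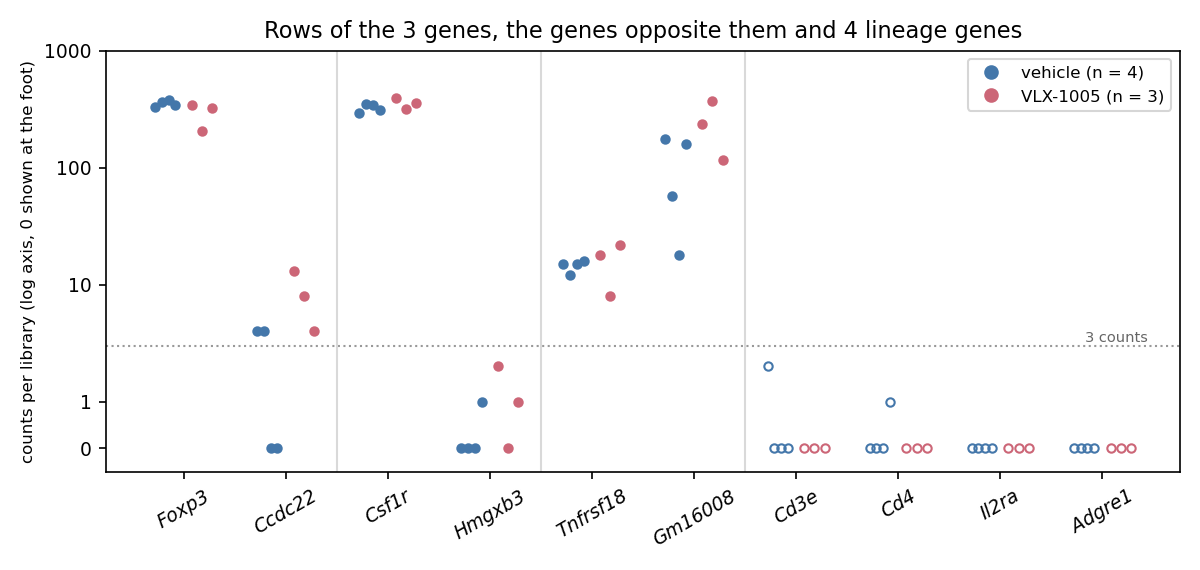
Counts per library (log axis, zeros at the foot) of the 3 genes, the gene opposite each and 4 lineage genes (open circles), with vehicle in blue (n = 4) and VLX-1005 in red (n = 3). The lineage genes lie below the dotted line at 3 counts in every library, while Foxp3 and Csf1r lie between 204 and 395 counts.

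The wider lineage lists gave the same description. Besides Cd247, the T cell list (16 genes, with T cell receptor, CD3, CD8 and signalling genes) had no gene with a mean of 10 counts or more, and 6 of its genes, Trbc1, Trbc2 and Cd3g among them, had 0 counts throughout. Its genes without an exon on the other strand held 18 counts in each group, led by the homing receptor Ccr7 with 19 counts in all, then Cd8a and Lck, the kinase of T cell receptor signalling, with 5 each. Cd247, which encodes the CD3ζ chain, was the exception at 286, 209, 216 and 173 counts in vehicle libraries and 334, 215 and 295 in VLX-1005 libraries. Like the 3 rows it has an opposite gene, Pou2f1, with which it shares 3007 exonic bases. The Cd247 groups overlapped, with a log2 fold change of 0.27 ± 0.18 (SE, edgeR adjusted p = 0.456).

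In the regulatory T cell list, 2 of 17 genes passed the filter, Foxp3 and Tnfrsf18, beside 4218 of the 48440 genes in the table. In the list 7 genes had 0 counts throughout, including Ctla4, Icos and Ikzf2. These encode inhibitory and costimulatory receptors and the transcription factor Helios. The next most abundant were Ikzf4, which encodes Eos, with 47 counts and an opposite gene, and Nrp1, which encodes neuropilin-1, with 17. The median log2 fold change of Foxp3 and Tnfrsf18 was -0.15, beside -0.01 over all genes tested, and 0 of the 2 passed in either direction. Without these 2 genes the summed level of the list was 5.94 to 10.2 CPM with vehicle and 7.90 to 13.2 CPM with VLX-1005.

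In the macrophage and monocyte list, Csf1r was the only 1 of 18 genes to pass the filter. The other 17 held 25 counts in the vehicle group and 37 in the VLX-1005 group, and their summed level was 4.24 to 7.17 CPM and 5.53 to 16.6 CPM. Cd14, the lipopolysaccharide coreceptor, had 15 counts over all libraries, and the complement genes C1qc and C1qa had 13 and 10. Adgre1, Mrc1, Tyrobp, Fcer1g and Ccr2 had 0. In the B cell and dendritic cell list none of 9 genes passed the filter, and the highest was Xcr1, a chemokine receptor of dendritic cells, with 52 counts. The B cell genes Ighm and Cd79a had 12 and 7, and Zbtb46 had 1. Apart from Cd247, the other listed genes of T cells and macrophages thus had few or no counts in both groups. That sparseness was part of the reason for choosing the Foxp3, Csf1r and Tnfrsf18 rows, so it is a description and not a test.

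Over these 4 lists, 60 different genes were counted, and a mean of 10 counts or more was reached by 4 of the 6 genes with exons opposite another gene and by 0 of the 54 genes without. Those 54 genes held 204 counts in all. Foxp3, Csf1r and Tnfrsf18, chosen because they carried counts, are 3 of those 4, so the split within the lists follows in part from the choice. The other genes with an opposite exon were Cd247 with 1728 counts, Ikzf4 with 47 and Ikzf2 with 0. Over the whole table, 37.2% of 4889 protein-coding genes with an exon opposite another gene reached that mean, against 3.88% of 16794 without. The first set held 3563482 counts and the second 259244. The 3 rows and Cd247 were thus among the many rows with counts that have a gene on the other strand. The part of the strand setting in these levels was not tested.

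**Figure D5:**
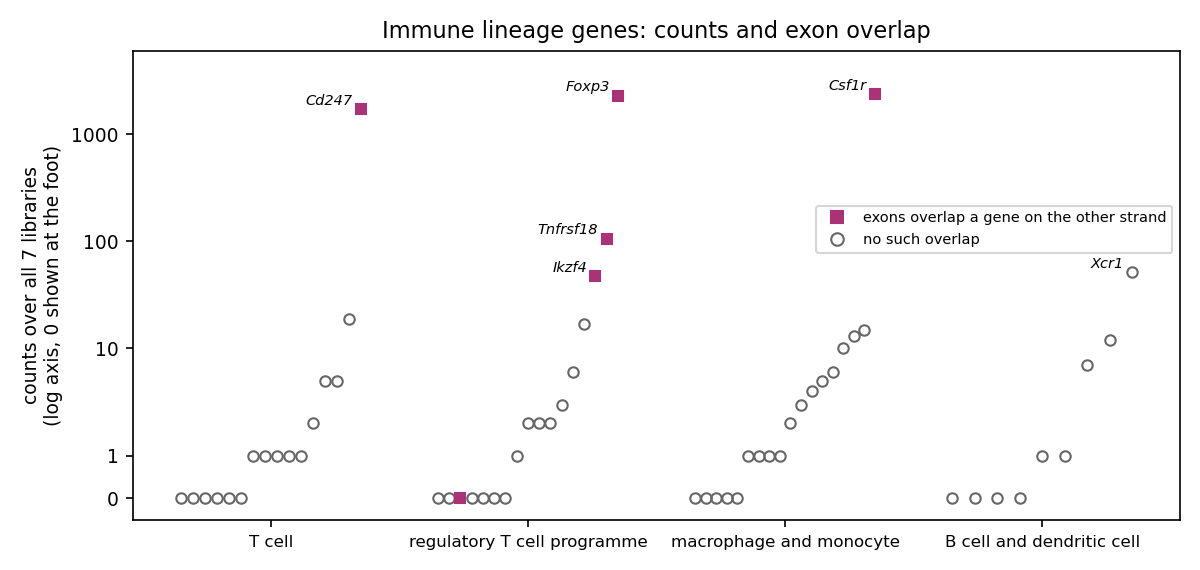
Counts over all 7 libraries (log axis, zeros at the foot) of each gene in 4 immune lists, with purple squares for genes whose exons overlap a gene on the other strand and open circles for the rest. Foxp3, Csf1r, Cd247 and Tnfrsf18 stand at 106 to 2370 counts, and no open circle exceeds 52. All of these named genes but Cd247 were chosen because they carried counts.

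The genes opposite these rows held few counts in the first pairs and many in the last. Ccdc22, opposite Foxp3, had 4, 4, 0 and 0 counts in vehicle libraries and 13, 8 and 4 in VLX-1005 libraries. The Foxp3 row therefore held 98.8% to 100% of the counts of the pair with vehicle and 96.2% to 98.8% with VLX-1005. Hmgxb3, opposite Csf1r, had 4 counts over all libraries, so Csf1r held at least 99.5% of its pair in each. Neither opposite row passed the filter, and neither was tested. Flicr, which overlaps Foxp3 on its own strand, had 30 to 39 counts in vehicle libraries and 28 to 51 in VLX-1005 libraries, and its log2 fold change was 0.13 ± 0.26 (SE, edgeR adjusted p = 0.835). How reads common to Foxp3 and Flicr were counted is not given in the sources used.

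The Tnfrsf18 pair ran the other way. Gm16008 had 175, 57, 18 and 160 counts in vehicle libraries and 236, 371 and 116 in VLX-1005 libraries, and the Tnfrsf18 row held only 8.56% of the counts of the pair over all libraries. Its share per library was 7.89%, 17.4%, 45.5% and 9.09% with vehicle and 7.09%, 2.11% and 15.9% with VLX-1005. The Gm16008 row ranged over 21.6-fold between libraries in CPM, whereas Tnfrsf18 ranged over 2.23-fold. Its log2 fold change of 1.27 ± 0.79 (SE, edgeR adjusted p = 0.455) did not pass, and the groups overlapped. With the ribosomal RNA share as a covariate its sign turned, to -0.21.

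Genes that act with these receptors were examined next. In the list of GITR and tumor necrosis factor receptor signalling (18 genes), 3 were tested and 0 passed in either direction. The 3 include the chosen Tnfrsf18 row itself. The median log2 fold change of 0.06 is that row's own value, so it does not describe the other genes. Nfkb2, the precursor of a noncanonical NF-κB subunit, had 451 counts over all libraries and a log2 fold change of -0.20 ± 0.23 (SE, edgeR adjusted p = 0.691). Tnfsf9, the 4-1BB ligand, had 93 counts and a log2 fold change of 0.48 ± 0.43 (SE, edgeR adjusted p = 0.584). Tnfrsf1a had 44 counts and was not tested. Tnfsf18, the ligand of GITR, had 0 counts throughout.

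In the list of CSF1 receptor signalling (15 genes), 2 were tested, 0 passed in either direction and the median log2 fold change was 0.41. The 2 were Il34 and the chosen Csf1r row itself, at 0.09, so Il34 was the only other gene behind that median. Il34, which encodes a ligand of the receptor, had 21, 9, 6 and 16 counts in vehicle libraries and 22, 25 and 19 in VLX-1005 libraries. For Il34 the log2 fold change was 0.73 ± 0.43 (SE, edgeR adjusted p = 0.395). The vehicle libraries spread more widely than the VLX-1005 libraries in these counts. Csf1, the other ligand, had 0 counts throughout, Csf2ra had 50 and the adaptor gene Grb2 had 9. Each of the tested genes in both signalling lists has an exon opposite another gene.

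Ccdc22 works in the Commander complex, and 4 of its 15 listed genes were tested, with 0 passing in either direction and a median log2 fold change of -0.23. Commd1, a subunit that also restrains NF-κB, had 252, 248, 339 and 265 counts in vehicle libraries and 269, 180 and 179 in VLX-1005 libraries. In CPM it was 234 with vehicle and 168 with VLX-1005 on average, without overlap, and its log2 fold change was -0.47 ± 0.19 (SE, edgeR adjusted p = 0.202). Rows entirely lower with VLX-1005 made up 8.16% of all those tested. The study named Commd1 on these libraries too, and the fold change of Commd1 here was likewise below the study's cutoff. Vps29, a subunit of the retriever part of the complex, had a log2 fold change of -0.38 ± 0.16 (SE, edgeR adjusted p = 0.243). Vps35l, another retriever subunit, was at -0.08 ± 0.16 (SE, edgeR adjusted p = 0.825), and Vps26c, which has no opposite exon, was at 0.61 ± 0.37 (SE, edgeR adjusted p = 0.416).

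In the endocrine islet list 9 of 12 genes were tested and 0 passed in either direction, with a median log2 fold change of -0.17. The granin genes Chgb and Chga had 5060 and 2413 counts, Gcg, which encodes glucagon, had 1433 and Ins2 had 1205. Other genes that β cells are known to express were nearly without counts: Pcsk1, which encodes a prohormone convertase, had 20, Pdx1, a β cell transcription factor gene, had 16 and Slc2a2, which encodes the glucose transporter GLUT2, had 6. In the acinar, duct and mesenchymal list none of 10 genes was tested, and the summed level was 10.4 to 25.1 CPM with vehicle and 14.6 to 38.9 CPM with VLX-1005, led by Cpa1 and Prss2 with 46 counts each, Cela2a with 28 and Col3a1 with 17.

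Rows opposite a listed gene could hold far more counts than the gene itself. Pcsk2os2 and Pcsk2os1, antisense to Pcsk2, which encodes a prohormone convertase, averaged 35590 and 16910 CPM with vehicle, and Pcsk2 had 280 counts over all libraries. Casp9, opposite Cela2a, averaged 16650 CPM with vehicle. Psd, opposite Nfkb2, held 526, 496, 242 and 557 counts in vehicle libraries and 483, 595 and 438 in VLX-1005 libraries. Gm26879 shares 667 exonic bases with Rcor3 and 205 with Traf5, which itself had 0 counts, and held 164 to 198 counts in vehicle libraries and 107 to 197 in VLX-1005 libraries. Among these 5 rows, which with Foxp3 itself opposite Ccdc22 had the most counts, the adjusted p in edgeR ranged from 0.259 to 0.816.

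The rows most like each of the 3 across libraries were found by Pearson correlation of log2 CPM over the 7 libraries and 4217 other tested rows, as a description. For Foxp3 they were Gm5577 (r = 0.995), 1700040L08Rik (r = 0.988) and Gm17036 (r = 0.985), each annotated as antisense, and 102 rows had r above 0.9. For Csf1r they were Ube3a (r = 0.974), Gm4876 (r = 0.966, also antisense) and Sdf2 (r = 0.959), with 13 rows above 0.9. For Tnfrsf18 they were Gm15956 (r = 0.942, also antisense), Tsfm (r = 0.941) and Zfp940 (r = 0.934), with 8 rows above 0.9. Of all these rows only Zfp940 has no exon opposite another gene. None was a gene of the T cell or macrophage lists. Only Cd247 and Csf1r of those lists were tested, so almost no such gene could have appeared. All points share the libraries' scaling and depth, and with 7 libraries high values arise readily among so many rows.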

How the data were processed

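Islet RNA of the vehicle group (4 libraries) and the VLX-1005 group (3 libraries) was sequenced as strand-specific libraries of polyadenylated RNA. The authors deposited raw counts per Ensembl gene. The submitters' processing notes name Trimmomatic, FastQC, HTSeq, DESeq2 and mm10, and the study's methods add HISAT2 and Galaxy. Strand setting, counting mode and annotation release were not given in the sources used here. Reads from overlapping genes therefore cannot be separated with certainty. Total counts were 1024586 to 1430785 per library.

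IDs were matched to GENCODE M21, with 382 left without a position, and exons overlapping on the other strand were found with bedtools 2.31.1. The CPM of rows used library sizes over the genes that passed the filter, multiplied by trimmed mean of M values factors. Only the limit for a count of 0 used library totals. Groups were compared with edgeR 4.0.16 (quasi-likelihood, two-sided, under R 4.3.3), after its default filter (4218 genes tested), with Benjamini-Hochberg adjustment over those genes and a threshold of 0.05. Log2 CPM used a prior count of 2. The fit was tested on simulated data.

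DESeq2 1.42.0 was an alternative, as were different scaling and filters, a replicate block, the ribosomal RNA share as a covariate and omission of each library. The 3 rows and the gene lists were chosen with earlier results of these data known. Named genes were the 3 rows, the gene opposite each, 4 lineage genes, up to 4 genes per list by summed counts and any that passed, the 3 most correlated rows of each, and up to 5 abundant rows opposite a listed gene. Other genes named were chosen after their values were seen, as were the alternatives for 6 further rows. Csf1r sequence is not shown.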

Additional observations from a re-analysis of the deposited data

Results flagged for a closer look

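In 7 checks for a vehicle library standing apart from the other 3, 2 passed Dixon's 95% limit for the gap as a share of the range, which chance exceeds in about 1 in 20 groups. The Foxp3 row was 349 CPM in vehicle replicate 3 and 276 to 286 CPM in the other vehicle libraries, a gap of 0.86 of the range. That library also had the fewest genes with a count (9862) and the fewest Gm16008 counts (18). Their part in the Foxp3 level was not tested. The Csf1r share of its pair with Hmgxb3 was 99.7% in vehicle replicate 4 and 100% in the others, a gap of 1.00 of the range that rests on a single Hmgxb3 count.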

How the results depend on the processing

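The Foxp3 row stayed lower with VLX-1005 and unpassed under all 14 alternatives, with a log2 fold change of -0.46 to -0.21 and adjusted p-values of 0.150 to 0.921, and of -0.46 to -0.26 when each library was left out. Csf1r stayed at 0.01 to 0.17 under the same alternatives (0.04 to 0.17 without one library). Tnfrsf18 ran from -0.25 to 0.29 without one library and turned direction without vehicle replicate 2 (-0.04) and, separately, without VLX-1005 replicate 3 (-0.25), on counts of 8 to 22 per library, and reached 0.46 with the ribosomal RNA share as a covariate. Gm16008 turned to -0.21 with that covariate. The causes were not tested.

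The count of genes passing, 100 of 4218 in edgeR, was 199 with DESeq2, 263 with no filter on low counts (18578 genes tested) and 164 with a filter at 1 CPM (9034 tested). It was 0 with the ribosomal RNA share as a covariate, with 260 at an unadjusted p below 0.05; DESeq2 was not run with that covariate. Leaving out a library gave 14 to 203: 14, 23, 16 and 18 without vehicle replicates 1 to 4, and 29 and 203 without VLX-1005 replicates 2 and 3. With the replicate number as a replicate block it was 19. Same-numbered libraries did not deviate together (r = -0.03, -0.02 and 0.09), so the numbers were not taken as pairs. Depth limits what can be said of the lineage genes, since a count of 0 allows up to 3 counts, and Tnfrsf18 rests on few counts.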

Other observations

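Among the tested rows opposite a listed gene, 3 held more counts in every VLX-1005 library than in any vehicle library, and were chosen for mention after their values were seen. Gm15655, opposite Maf, a transcription factor gene of macrophages and T cells, had 7, 10, 2 and 20 counts in vehicle libraries and 62, 79 and 23 in VLX-1005 libraries. Gm15655 had a log2 fold change of 2.49 ± 0.58 (SE, edgeR adjusted p = 0.0569), and Maf itself had 2 counts over all libraries. Gm26626, opposite Runx1, a transcription factor gene of blood development, had 26, 39, 17 and 35 counts in vehicle libraries and 52, 63 and 110 in VLX-1005 libraries. For this row the log2 fold change was 1.34 ± 0.32 (SE, edgeR adjusted p = 0.0528), and Runx1 itself had 2 counts. Gm45091, opposite Cebpa, a myeloid transcription factor gene, had 7, 14, 1 and 0 counts in vehicle libraries and 32, 66 and 17 in VLX-1005 libraries, with a log2 fold change of 2.82 ± 0.86 (SE, edgeR adjusted p = 0.152) and 6 counts for Cebpa.

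The groups did not overlap in CPM for any of these 3 rows, as for 9.48% of all rows tested in that direction. They missed the threshold in the reported fit. Over 14 alternatives (edgeR or DESeq2) Gm26626 passed in 5, with adjusted p-values from 0.000514 to 0.258. Gm15655 passed in 6, from 1.41e-08 to 0.819, and Gm45091 in 1, from 5.97e-07 to 0.905. For each row the lowest value came from edgeR with no filter on low counts, the only setting that Gm45091 passed. The fold change was above 0 throughout. The ribosomal RNA share was higher in the VLX-1005 libraries. With that share as a covariate the log2 fold change was 1.17 for Gm15655, 1.57 for Gm45091 and 1.69 for Gm26626, with edgeR adjusted p-values of 0.819, 0.905 and 0.258. Of the other tested rows opposite a listed gene, Foxp3 was entirely lower with VLX-1005. The groups overlapped for Pcsk2os2, Pcsk2os1, Casp9, Psd, Gm26879, Gm16008, 1700016B15Rik, Fam216a, Gm15392, Knop1, Gm15894 and Gm29114. Other rows opposite listed transcription factor genes overlapped between the groups. Gm29114, opposite Ikzf2, stood at 0.41 ± 0.47 on the log2 scale (SE, adjusted p = 0.690 in edgeR), and Gm26876, opposite Ikzf4, had 3 to 8 counts with vehicle and 7 to 16 with VLX-1005 and was not tested.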
